A study of Mus musculus with 4 samples.

Results

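miR-21 and miR-22 were followed in the liver of wild-type (WT) and *Clock* mutant mice at 2 times of day. The 2 miRNAs were taken from the microarrays by name, as the entries mmu-miR-21 and mmu-miR-22, and are 2 of the 611 mouse miRNAs on the arrays. Their star strands, which come from the other arm of the same precursors, were left out of this choice. Both were detected on all 4 arrays, as were 123 mouse miRNAs in all. After the arrays were scaled to a common level, miR-21 ranged over 0.28 and miR-22 over 0.29 on the log2 scale across the 4 arrays, and neither passed 2-fold in any of the 4 comparisons between single arrays, also under the other ways of processing that were tried.

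The 4 arrays held liver RNA of male WT mice at ZT2, of *Clock* mutant mice at ZT2, of WT mice at ZT14 and of *Clock* mutant mice at ZT14. Zeitgeber time counts from lights on, so ZT2, at 2 h, lies in the light and ZT14, at 14 h, in the dark. The mutant mice carry the ClockΔ19 mutation, which is present throughout the body and not only in the liver, and the WT mice do not. All mice were 6 to 8 weeks old, had free access to food and water, and were kept in a cycle of 12 h light and 12 h dark for 2 weeks before they were killed. Each array was hybridized with RNA pooled from 3 mice, so each condition had 1 measurement and the spread between mice cannot be seen. The comparison of mutant with WT within a time point addresses which liver miRNAs depend on CLOCK, and the comparison of ZT14 with ZT2 within a genotype addresses how they vary over the day.

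miRNAs are short RNAs that guide Argonaute proteins to messenger RNAs, mainly by pairing of the seed, the bases near their 5′ end, and so lower the output of those messenger RNAs. miR-21 is made in most tissues from a transcript that overlaps the end of *Vmp1*, is raised in injured and regenerating liver, and represses among others *Pdcd4*. miR-22 is made from the noncoding RNA *Mir22hg* and has been studied in lipid and energy metabolism of liver and heart. CLOCK pairs with BMAL1 to drive the transcription of rhythmic genes through E-box elements, and the ClockΔ19 protein still binds DNA but activates transcription poorly.

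The mature sequences are shown because the names on the arrays are older than the present ones. In RefSeq, mmu-miR-21 is miR-21a-5p and mmu-miR-22 is miR-22-3p. The seed, bases 2 to 8 from the 5′ end, is in capitals, and the other arm of each precursor is given for the star strands described further on.
miR-21a-5p: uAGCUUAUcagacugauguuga
miR-21a-3p: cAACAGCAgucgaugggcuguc
miR-22-3p: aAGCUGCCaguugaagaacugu
miR-22-5p: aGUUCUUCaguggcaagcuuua

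On the RefSeq annotation of GRCm38.p6, miR-21a-5p lies at chr11:86584120-86584141 on the minus strand and miR-22-3p at chr11:75463772-75463793 on the plus strand. The precursor genes *Mir21a* and *Mir22* are therefore on 1 chromosome, 11.1 Mb apart. *Mir21a*, at chr11:86584067-86584158, lies within the bounds of the protein-coding gene *Vmp1*, and *Mir22*, at chr11:75463716-75463810, within those of the long noncoding RNA *Mir22hg*. Exon and intron limits were not used here. The seeds of the 2 miRNAs begin with the same 4 bases, AGCU, and differ in the other 3.

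Mouse has further genes of the miR-21 name, which matter for what a probe could bind. The arrays list no entry under either name, and whether the miR-21 probes bind them was not tested.
miR-21b: uAGUUUAUcagacugauauuucc
miR-21c: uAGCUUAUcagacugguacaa
miR-21c, at chr8:128278188-128278208 on the minus strand, shares the seed of miR-21a-5p, and its first 15 bases are the same. miR-21b, at chr3:29636768-29636790 on the plus strand, has another seed and matches miR-21a-5p at 18 of 22 positions counted from the 5′ end. Among the 1679 mature names of the RefSeq table, miR-21a-5p shares its seed with miR-21c only, and miR-22-3p shares its seed with none. These names do not cover every known mouse miRNA, so a seed shared with a missing one could not be seen.

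The arrays were read in 1 colour, lay on 1 slide and were scanned together. The values are intensities after background subtraction, and the signal of a miRNA is the mean over its spots within a probe and then over its probes, without spots marked as outliers. Signals were then scaled by each array's own 75th percentile, taken over the 123 miRNAs that all 4 arrays detected, which lay between 339.9 and 537 units, lowest for WT at ZT14. At ZT2 the WT array detected 193 mouse miRNAs and the mutant array 161, and at ZT14 they detected 138 and 142. As a check of the tissue, miR-122, the liver-specific miRNA, was the brightest mouse miRNA on all 4 arrays.

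miR-21 was the second brightest mouse miRNA on every array, and miR-22 was the fourth. Between them stood miR-720, an entry that derives from a transfer RNA, and behind miR-22 came let-7f. These ranks were the same with normexp background correction and with the scanner's summed signal per miRNA. A rank is one of brightness and not of molecules, since probes differ in how strongly they bind, so it places the 2 miRNAs among the bright features and does not measure their amount.

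**Figure D1:**
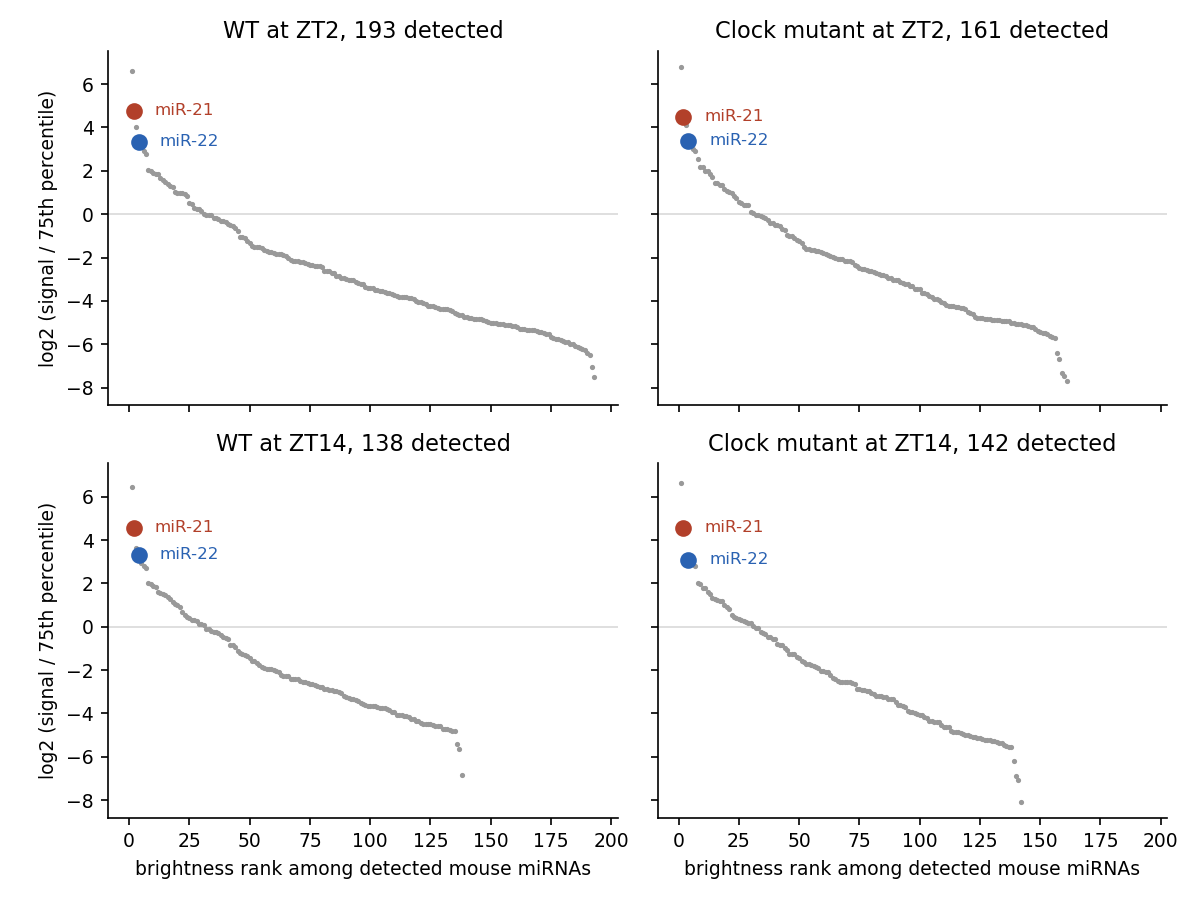
Scaled log2 signal (signal over the array's 75th percentile) of every detected mouse miRNA against its brightness rank, 1 panel per array. Grey points are single miRNAs, and miR-21 and miR-22 are marked at ranks 2 and 4 in each panel.

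Before scaling, the mean signal of miR-21 at ZT2 was 14693 units for WT and 11342 for the mutant, and at ZT14 it was 8038 for WT and 12630 for the mutant. These were 966 to 2681 times the mean negative control of the same array. For miR-22 the signals at ZT2 were 5425 and 5280 units, and at ZT14 3423 and 4585 units, WT first, 411 to 1007 times the negative controls. The WT array at ZT14 was thus the dimmest for both, as it was in its 75th percentile. Each miRNA had 2 probes with 10 spots each, all 20 spots were well above background on every array, 0 were saturated, and 0 to 4 per array were left out as outliers.

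The 2 probes of a miRNA differed in brightness by a nearly fixed factor. For miR-21 the brighter probe gave 2.32 times the dimmer one in WT and 2.49 times in the mutant at ZT2, and 2.33 and 2.35 times at ZT14. For miR-22 the factors were 2.98 and 3.12 at ZT2 and 3.17 and 2.98 at ZT14, WT first. Within a probe the spots had a mean coefficient of variation between 1.58% and 4.95%.

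**Figure D2:**
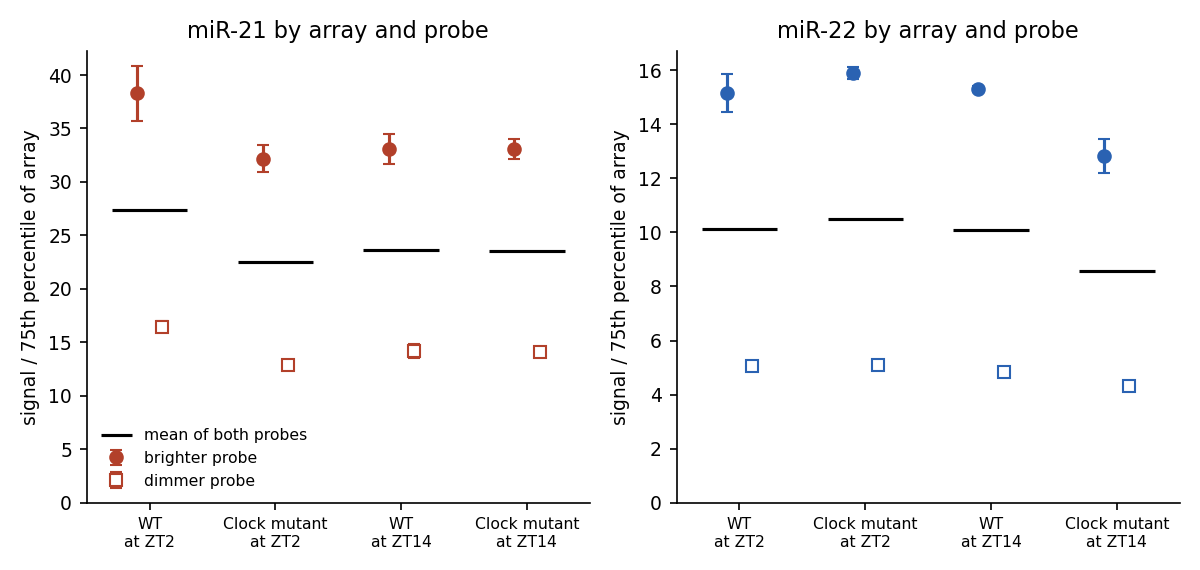
Signal of miR-21 and miR-22 over the array's 75th percentile, for each array and each of the 2 probes of the miRNA. Filled circles are the brighter probe, open squares the dimmer one, error bars the SD of the spots (n = 8 to 10 spots, some smaller than the symbol), and black lines the mean of both probes.

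After scaling, the log2 level of miR-21 was 4.78 on the WT array and 4.49 on the mutant array at ZT2, and 4.56 on each of the arrays at ZT14. With this scaling WT at ZT2 stood highest and the mutant at ZT2 lowest, with both arrays at ZT14 between them. In WT the step from ZT2 to ZT14, -0.21, exceeded the SD of the repeated spots, 0.10, and in the mutant the step of 0.066 slightly exceeded its SD of 0.057. The 2 arrays at ZT14 differed by -0.0042, less than their spot SD of 0.072. The spot SD covers the array only, and no spread between mice is in it. It is a spread of single spots and not the smaller error of their mean, so a difference within it is not shown to be noise. In bulk liver RNA, fewer cells of a type and less RNA per cell cannot be told apart.

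The log2 level of miR-22 was 3.34 on the WT array and 3.39 on the mutant array at ZT2, and 3.33 and 3.10 on those at ZT14. With this scaling the mutant at ZT14 stood lowest, at -0.23 from the next array, WT at ZT14, against a spot SD of 0.060. Among the other 3 arrays, the mutant and WT at ZT2 differed by 0.053 and the WT arrays by -0.0056, both within their spot SDs of 0.065. With this scaling the 2 miRNAs thus had different orders over the arrays, and their lowest arrays were both of the mutant, at ZT2 for miR-21 and at ZT14 for miR-22.

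The ranges of 1.22-fold for miR-21 and 1.23-fold for miR-22 lay below the median of 1.28-fold over the 123 miRNAs detected on all arrays. Of these, 33 had a smaller range than miR-21 and 39 a smaller range than miR-22.

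At ZT2 the mutant to WT log2 ratio of miR-21 was -0.28 (spot SD 0.092), with -0.25 from the brighter probe and -0.35 from the dimmer one. It was -0.37 without scaling, 0.027 when the 75th percentile was taken over all 611 mouse miRNAs (the all-miRNA scaling), 0 after quantile normalization and 0.53 in the authors' log2 table, so that its sign rests on the scaling. The ratio of miR-22 at ZT2 was 0.053 (spot SD 0.065), within the spread of its spots, and it was -0.039 without scaling. Of the 160 miRNAs detected on both arrays at ZT2, 4 differed at least 2-fold (2.5%), and neither miR-21 nor miR-22 was among them. A larger ratio in either direction than that of miR-21 was seen for 56 of the 160, and than that of miR-22 for 136.

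At ZT14 the order of the 2 miRNAs was turned. The mutant to WT log2 ratio of miR-21 was -0.0042 (spot SD 0.072), and 122 of the 123 miRNAs detected on both arrays had a larger ratio in either direction. That of miR-22 was -0.23 (spot SD 0.060), with -0.26 from the brighter probe and -0.17 from the dimmer one, and 47 of 123 were larger. Without scaling the ratios were 0.65 for miR-21 and 0.42 for miR-22, where the median of the 123 miRNAs was 0.63. With scaling, 8 of the 123 miRNAs differed at least 2-fold (6.5%), and both miRNAs were again outside that count.

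In WT, the ZT14 to ZT2 log2 ratio was -0.21 (spot SD 0.10) for miR-21, with -0.21 from each probe, and -0.0056 (spot SD 0.065) for miR-22. Their signs turned to 0.084 and 0.29 with the all-miRNA scaling and to 0.011 and 0.22 with the median scaling. In the other direction they were -0.87 and -0.66 without scaling and -0.94 and -0.74 with scaling by the spike-in control probes. Among 137 miRNAs detected on both arrays, 5 differed at least 2-fold (3.65%), a count of 27 without scaling and 37 with the spike-in control probes, while 58 had a larger ratio in either direction than miR-21 and 134 a larger one than miR-22.

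In the mutant, the ZT14 to ZT2 log2 ratio was 0.066 (spot SD 0.057) for miR-21 and -0.29 (spot SD 0.060) for miR-22. The probes of miR-21 gave 0.040 and 0.13, and those of miR-22 -0.31 and -0.24. Among 140 miRNAs, 9 differed at least 2-fold (6.43%), while 116 had a larger ratio in either direction than miR-21 and 37 a larger one than miR-22. The ratio of miR-21 was larger under other scalings, at 0.56 with the all-miRNA scaling, 0.27 with the median scaling and 0.21 with the spike-in control probes. The ratio of miR-22 became 0.20 with the all-miRNA scaling. In the 4 comparisons, 8 ratios in all, the one nearest to 2-fold with this scaling was that of miR-22 in the mutant, at 1.23-fold lower at ZT14.

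**Figure D3:**
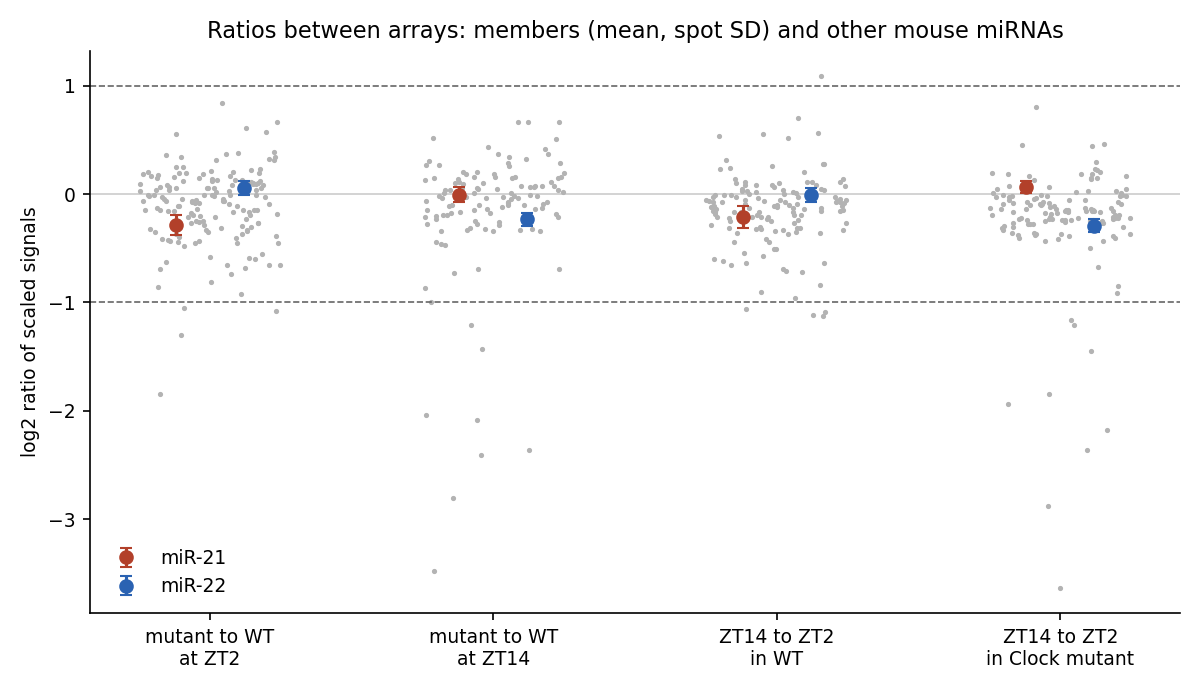
log2 ratios of scaled signals in the 4 comparisons between single arrays. Grey points are the other mouse miRNAs detected on both arrays (spread sideways at random), coloured points are miR-21 and miR-22 with the SD of their spots, and dashed lines mark 2-fold; all 8 coloured points lie between the dashed lines.

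The ratios above moved with the scaling, and the median of all miRNAs moved with them. The median log2 ratio of the 123 miRNAs ranged from -0.18 to 0.80 at ZT2, from -0.17 to 0.78 at ZT14, from -0.86 to 0.17 between time points in WT and from -0.19 to 0.33 in the mutant, over the ways of processing tried. Relative to that median, miR-21 stood at -0.27 at ZT2 and 0.027 at ZT14 in the mutant against WT, and miR-22 at 0.063 and -0.20. Between time points, miR-21 stood at -0.084 in WT and 0.23 in the mutant, and miR-22 at 0.12 and -0.13. Scalings that divide an array by 1 number leave these values as they are. Of the other alternatives, normexp changed most those at ZT14, to 0.24 for miR-21 and 0.0045 for miR-22, and those in WT, to -0.34 and -0.13. With quantile normalization both miRNAs had ratios of 0 by construction, because their ranks were the same on all arrays.

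**Figure D4:**
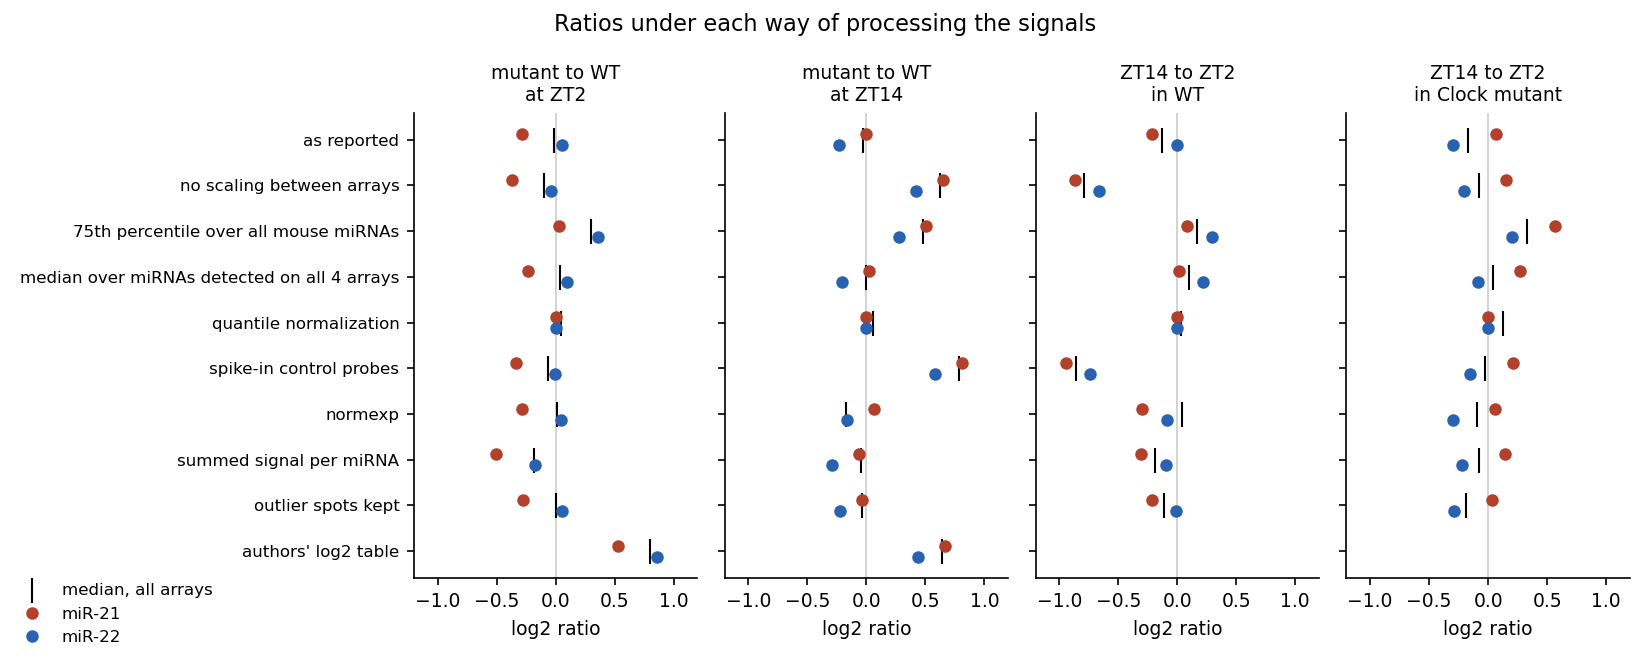
log2 ratios of miR-21 (red) and miR-22 (blue) and the median of the miRNAs detected on all 4 arrays (black bar) under each way of processing the signals, 1 panel per comparison. The points and the bar shift together along the log2 axis between most rows; the authors' log2 table has no entry in the panels between time points, since its columns at ZT2 and ZT14 were centred differently.

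A test needs more than 1 array per level of a factor, which only a joint model of the 4 arrays gives. When limma was fitted with both factors to the 123 miRNAs, with 1 residual degree of freedom per miRNA, the genotype difference was -0.14 for miR-21 (standard error 0.14, adjusted p = 0.729 from limma with Benjamini-Hochberg adjustment) and -0.091 for miR-22 (standard error 0.14, limma adjusted p = 0.819). The all-miRNA scaling turned these to 0.27 and 0.32, and leaving out the mutant array at ZT14, with genotype fitted alone, turned that of miR-22 to 0.056. The fit called 0 of the 123 miRNAs (0%) for genotype, with 10 at an unadjusted p under 0.05, and 7 without the mutant array at ZT2. Over the alternatives the limma adjusted p lay between 0.0373 and 1 for miR-21 and between 0.0512 and 1 for miR-22, lowest in the authors' log2 table for both. There the differences were 0.60 and 0.65, below the median of 0.70 over the 123, and 79 of the 123 were called. Set against the scanner output, the log2 number taken off in that table was 4.18 for WT and 3.27 for the mutant at ZT2. This raises all mutant to WT ratios at ZT2 alike. At ZT14 it was -3.32 for both arrays, which leaves them unscaled against each other.

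The time point difference, ZT14 against ZT2, was -0.073 for miR-21 (standard error 0.14, limma adjusted p = 0.783) and -0.15 for miR-22 (standard error 0.14, limma adjusted p = 0.634), beside a median of -0.15 over the 123 miRNAs. With the median scaling they were 0.14 and 0.065, and leaving out the WT array at ZT2, with time point fitted alone, turned that of miR-21 to 0.068. For time point the fit called 0 of 123 (0%), while 12 had an unadjusted p under 0.05. It called 13 without the WT array at ZT14, and 1 without the mutant array at ZT14. Over the alternatives the limma adjusted p lay between 0.297 and 1 for miR-21 and between 0.274 and 1 for miR-22. A p above the threshold in this design does not show that the levels were equal.

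The genotype ratio at ZT14 minus that at ZT2 was 0.28 for miR-21 and -0.29 for miR-22, with a median size of 0.19 over the 123 miRNAs. Of these, 38 had a larger difference in either direction than miR-21 and 35 than miR-22. With 1 array per condition this difference is what the fit takes as residual, so it could not be tested.

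The difference between both members within an array does not depend on any scaling of the whole array. The log2 signal of miR-21 minus that of miR-22 at ZT2 was 1.44 on the WT array (spot SD 0.098) and 1.10 on the mutant array (spot SD 0.056). At ZT14 it was 1.23 on the WT array (spot SD 0.071) and 1.46 on the mutant array (spot SD 0.061). Its size contains the difference between the probes, and only its change from array to array is read. From WT to mutant it changed by -0.33 at ZT2 (spot SD 0.11) and by 0.23 at ZT14 (spot SD 0.094), so miR-21 was lower against miR-22 in the mutant at ZT2 and higher at ZT14. From ZT2 to ZT14 it changed by -0.21 in WT (spot SD 0.12) and by 0.36 in the mutant (spot SD 0.083). Such changes were not unusual between 2 miRNAs. With each miRNA centred on its own mean, miR-21 and miR-22 lay 0.15 apart over the arrays (root mean square). The median miRNA lay 0.17 from miR-21 and 0.15 from miR-22.

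These signs were the same for the 4 pairings of a miR-21 probe with a miR-22 probe, a check chosen after the values were seen. At ZT2 the pairings gave -0.42 to -0.25, at ZT14 0.16 to 0.25, in WT -0.23 to -0.14 and in the mutant 0.28 to 0.44. The signs also held with normexp and with outlier spots kept. The summed signal per miRNA and the authors' log2 table gave the reported changes again, to the digits printed, so they were no separate check. Quantile normalization gave no change by construction. Averaged over time points, the mutant minus WT value was -0.052 (exact permutation test, two-sided, p = 1). Averaged over genotypes, ZT14 minus ZT2 was 0.077 (exact permutation test, two-sided, p = 0.667). The smallest p that 4 arrays allow is 0.333, so this test could not reach 0.05.

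**Figure D5:**
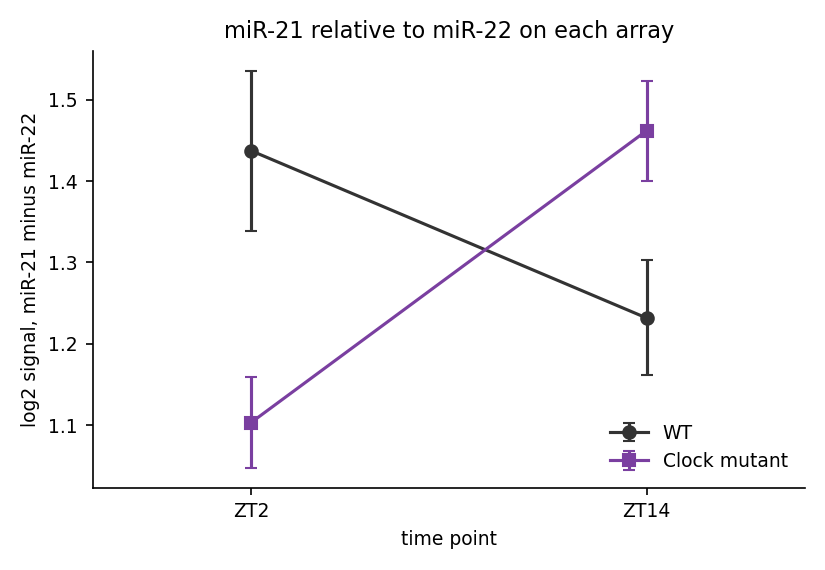
log2 signal of miR-21 minus that of miR-22 at ZT2 and ZT14, for the WT and the *Clock* mutant array at each time point. Points are single arrays, error bars the SD of repeated spots, and lines join the arrays of a genotype; the WT value is 1.44 and then 1.23, the mutant value 1.10 and then 1.46.

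The star strands of both precursors have entries on the arrays too. miR-21*, the miR-21a-3p arm, was detected on 0 of the 4 arrays. miR-22*, the miR-22-5p arm, was detected on all 4, with signals at ZT2 of 82.4 for WT and 80.5 for the mutant, at ZT14 of 46.5 for WT and 68.0 for the mutant, and at ranks between 79 and 85. Its mutant to WT log2 ratios were 0.059 at ZT2 (spot SD 0.18) and -0.11 at ZT14 (spot SD 0.17), both within the spread of its spots. Its ZT14 to ZT2 log2 ratio was -0.17 (spot SD 0.20) in WT and -0.33 (spot SD 0.15) in the mutant, beside -0.0056 and -0.29 for miR-22 itself.

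Likeness of pattern was measured as the root mean square difference of the 4 log2 levels, each miRNA centred on its own mean, over the 4 arrays. The 5 miRNAs nearest to miR-21 were miR-30c-2* at 0.019, let-7e at 0.036, miR-98 at 0.047, miR-199b* at 0.075 and miR-690 at 0.082, where the median over 122 miRNAs was 0.17. The 5 nearest to miR-22 were miR-29a at 0.035, miR-202-3p at 0.041, miR-30e at 0.044, miR-1904 at 0.047 and miR-126-5p at 0.047, beside a median of 0.15. miR-29a is known for repressing collagens, and miR-126-5p comes from the endothelial miR-126 precursor. miR-22 was 43rd in likeness to miR-21, and miR-21 was 61st in likeness to miR-22, both at 0.15. Neither median was exceeded, so the 2 differed no more than either did from a typical miRNA. With 4 points per miRNA, near patterns are frequent, and these distances are a description.

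Of a list of 23 other miRNAs known as abundant in liver, among them miR-122, miR-192 and most of the let-7 family, 22 were detected on all arrays and miR-191 on none. Their mutant to WT log2 ratios had a median of 0.13 at ZT2, with 17 above 0 and 5 below, beside a median of -0.010 over the 123, and of -0.031 at ZT14, with 8 above and 14 below, beside -0.031. At ZT2 the ratio of miR-21, -0.28, lay below the lowest of the list, -0.21. Between ZT2 and ZT14 their median in WT was -0.019 with 13 below 0, beside -0.13 over the 123 with 95 below 0. In the mutant it was -0.17, the same as over the 123, where 102 were below 0. With this scaling all 22 were below 0 in the mutant, from -0.36 to -0.053, and miR-21 stood at 0.066. None of the 22 passed 2-fold in any comparison, and limma called 0 of them for genotype or time point.

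miRNAs known from cell types other than the hepatocyte differed between the arrays as well. The levels here are those of the 75th percentile scaling over the 123 miRNAs, and the order of the arrays changes with it: with the median and the all-miRNA scaling the mutant at ZT14 was highest for miR-21. The array on which miR-21 was highest as reported, WT at ZT2, also had the highest summed scaled signal of 7 leukocyte miRNAs, 1.55 against 0.834 to 0.998 on the other 3 arrays, with miR-150 and miR-155 undetected on all. It was the only array with detected muscle miRNAs, 3 of 4, all but miR-206, with a summed scaled signal of 0.311 against 0.0044 to 0.011. Of 5 miRNAs of bile duct epithelium it detected 4, all but miR-200c, with a summed scaled signal of 0.238 against 0.103 to 0.156. These counts stand beside its detection of the most mouse miRNAs in all, 193 against 138 to 161 on the other arrays. The stellate cell and fibroblast sum was also highest in WT at ZT2, at 0.672 against 0.527 to 0.647 on the other arrays. Its members did not move alike. There miR-143 and miR-214 were highest in WT at ZT2, while miR-199a-3p and miR-199a-5p were highest in the mutant at ZT14. The hepatocyte, red blood cell and endothelial sums were instead highest in the mutant at ZT2, where miR-21 was lowest as reported. With so few arrays, a list and a miRNA easily share their highest array. The part of these cell types in the level of miR-21 was not tested.

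For miR-22 the mutant at ZT2 was highest as reported, by 0.053 over WT at ZT2 and within the spot SD of 0.065, while WT at ZT14 was highest with the median scaling and the mutant at ZT14 with the all-miRNA scaling. The mutant array at ZT2 had the highest summed scaled signal of 3 red blood cell miRNAs, miR-451, miR-144 and miR-486, at 5.94 against 2.56 to 3.34 elsewhere. The pair of endothelial miRNAs, the 2 mature forms of the miR-126 precursor, ran from 3.61 in the mutant at ZT14, where miR-22 was lowest as reported, to 4.25 in the mutant at ZT2. The 3 hepatocyte miRNAs, miR-122, miR-192 and miR-194, summed to 96.0 in WT at ZT14 and to 122 in the mutant at ZT2. These 3 sums mostly follow their brightest miRNA, and do not show that the others moved with it. In the mutant at ZT2 the log2 level was 6.80 for miR-122 beside 3.03 for miR-192. It was 2.53 for miR-451 beside -2.78 for miR-144, and 2.01 for miR-126-3p beside -2.14 for miR-126-5p. Of 5 stellate cell and fibroblast miRNAs, 3 or 4 were detected per array, with miR-145 on none, and their sum lay between 0.527 in WT at ZT14 and 0.672 in WT at ZT2. The part of these cell types in the levels of miR-22 was not tested.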

How the data were processed

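Liver RNA of 4 conditions, 1 pool of 3 mice per array, was hybridized to Agilent mouse miRNA arrays read in 1 colour. The authors deposited 1 scanner file per array from Agilent Feature Extraction 10.7, in which each spot has a linear intensity after background subtraction, with no step that makes arrays comparable. The authors further deposited per-miRNA log2 values, whose columns at ZT2 and ZT14 were centred differently, which their methods do not describe. The direction and log base of those values were found by setting them against the scanner output.

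Intensities of spots without outlier flags were averaged within probes, then over probes, scaled by the array's 75th percentile over the 123 miRNAs found on every array, and log2 transformed. Single arrays were compared by ratios with the pooled within-probe SD of spots, and both factors by limma 3.58.1 in R 4.3.3 with Benjamini-Hochberg adjustment. Tested on simulated data for 123 miRNAs, of which 30 had a log2 change of 1.5 at an SD of 0.15, the genotype fit called 30 changed and 0 unchanged miRNAs. That change is far larger than the differences of miR-21 and miR-22, and the simulated genotype change was equal at both time points. The simulation checks that the fit runs as meant, and does not show what size of change it could call here. Other steps used Python 3.11.15 with scipy 1.17.1. Sequences and places came from RefSeq tables of GRCm38.p6, and the arrays name no build. The precision is limited by the number of arrays.

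miRNAs named are the 2 members, their star strands, miRNAs of the miR-21 name, the 5 nearest in pattern to each and the lists given. Members and lists were chosen with earlier results of these data known. The alternatives were other scalings, background corrections, summaries of spots and detection floors, a threshold of 1.5-fold, each probe alone, genotype or time point alone, and each array left out.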

Additional observations from a re-analysis of the deposited data

Results flagged for a closer look

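The results below point in opposite directions at both time points or in both genotypes, on single arrays, so none of the differences was tested. For the single miRNAs the opposition rests on the scaling, while a scaling of a whole array cancels in the difference between them. The log2 ratio of miR-21 from ZT2 to ZT14 was -0.21 in WT and 0.066 in the *Clock* mutant, but 0.084 and 0.56 with the 75th percentile over the 611 mouse miRNAs, and 0.011 and 0.27 with the median scaling. The mutant to WT log2 ratio of miR-22 was 0.053 at ZT2, which is within the spot SD of 0.065, and -0.23 at ZT14, but 0.36 and 0.28 with the 75th percentile over the 611 mouse miRNAs, and 0.86 and 0.44 in the authors' log2 table. The log2 signal of miR-21 minus that of miR-22 changed from WT to mutant by -0.33 at ZT2 and by 0.23 at ZT14, and from ZT2 to ZT14 by -0.21 in WT and by 0.36 in the mutant. Over the arrays, the 2 miRNAs differed in pattern no more than either did from a typical miRNA.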

How the results depend on the processing

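Of 229 alternative values, 142 were counted as kept and the other 87 were not. A ratio between single arrays, or a change of miR-21 relative to miR-22, was kept if it stayed within the spot SD of the reported value. A limma difference was kept if its sign did not turn, and a count of miRNAs if it stayed close. Part of the 87 therefore had the same direction as the reported value. The sign turned in 21 of 84 alternative values of the ratios between single arrays, in 14 of 58 of the limma differences and in 0 of 16 of the change of miR-21 relative to miR-22. Among those 16, the values from the summed signal and the authors' log2 table repeated the reported ones and were no separate check. Quantile normalization, which gives no change by construction, was not among the 16. All of the 229 alternative values were planned. The pairings of probes were added after the values were seen. No paired analysis by replicate was possible because all conditions carry a single and equal replicate number. The limma fit of both factors does set the genotypes against each other inside each time point, and the time points inside each genotype. The exact permutation test regrouped the arrays without regard to the other factor. The brightness ranks, 2 and 4, stayed the same, and the change of miR-21 relative to miR-22 stayed within the spot SD, under all alternatives counted for them. The authors' log2 table was not run for time point contrasts, since its columns at ZT2 and ZT14 were centred differently. Unless a sentence gives a reason, the cause of a move was not tested. The precision is limited by 4 arrays and not by signal, since both miRNAs lay far above background.

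Without scaling, the log2 ratio of miR-21 was 0.65 from WT to mutant at ZT14, -0.87 from ZT2 to ZT14 in WT and 0.16 in the mutant, and that of miR-22 was -0.039 at ZT2, 0.42 at ZT14, -0.66 in WT and -0.20 in the mutant. Spike-in control probes gave miR-21 0.81 at ZT14, -0.94 in WT and 0.21 in the mutant, and miR-22 0.58 at ZT14, -0.74 in WT and -0.15 in the mutant. The all-miRNA scaling, by the 75th percentile over the 611 mouse miRNAs, gave miR-21 0.027 at ZT2, 0.51 at ZT14, 0.084 in WT and 0.56 in the mutant, and miR-22 0.36, 0.28, 0.29 and 0.20. The median scaling gave miR-21 0.011 in WT and 0.27 in the mutant, and miR-22 0.22 and -0.087. Quantile normalization gave 0 throughout, by construction, since the ranks of both miRNAs were the same on all arrays.

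Normexp gave miR-22 -0.17 at ZT14 and -0.084 in WT. The summed signal gave miR-21 -0.51 at ZT2 and 0.14 in the mutant, and miR-22 -0.17 at ZT2, -0.099 in WT and -0.22 in the mutant. The authors' log2 table gave 0.53 at ZT2 and 0.67 at ZT14 for miR-21, and 0.86 and 0.44 for miR-22. The dimmer probe alone gave 0.13 for miR-21 in the mutant and -0.17 for miR-22 at ZT14.

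In limma, the genotype difference turned to 0.14 for miR-21 and 0.19 for miR-22 without scaling, to 0.27 and 0.32 with the all-miRNA scaling, to 0.24 and 0.29 with spike-in control probes, and to 0.60 (adjusted p = 0.0373) and 0.65 (adjusted p = 0.0512) in the authors' log2 table. The time point difference turned to 0.32 and 0.25 with the all-miRNA scaling and to 0.14 and 0.065 with the median scaling. With each array left out in turn and the factor fitted alone, so that a lone array of a level is assumed to vary like the others, the genotype difference ran from -0.25 to -0.037 for miR-21 and from -0.24 to 0.056 for miR-22, and the time point difference from -0.21 to 0.068 and from -0.27 to -0.032. miRNAs called by genotype were 6 with normexp, 79 in the authors' log2 table and 0 to 7 with an array left out. Those called by time point were 5 without scaling, 3 with spike-in control probes, 3 with normexp and 0 to 13 with an array left out.

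miRNAs past 2-fold at ZT2, 4 as reported, were 2 with the all-miRNA scaling, 1 with quantile normalization, 0 with normexp, 19 with the summed signal and 27 in the authors' log2 table, and 19 passed 1.5-fold. At ZT14, 8 as reported, they were 15 without scaling, 27 with spike-in control probes, 5 with normexp, 15 with the summed signal and 23 in the authors' log2 table, and 16 passed 1.5-fold. In WT, 5 as reported, they were 27 without scaling, 37 with spike-in control probes, 1 with the all-miRNA scaling, the median scaling and quantile normalization, 0 with normexp and 18 with the summed signal, and 17 passed 1.5-fold. In the mutant, 9 as reported, they were 4 with normexp and 18 with the summed signal.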
